A study of Mus musculus with 18 samples.

Results

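The 10 genes described here encode subunits of Polycomb repressive complex 2 (PRC2) in the mouse. They were taken by gene name from the 55471 genes in the expression tables, whatever their values, and all 10 were found. The set itself was chosen with earlier results of these data known, so counts of its members are descriptions. A gene was tested where any library of the comparison had it at more than 1 FPKM, and the 10 members passed this filter each time. RNA-Seq of polyadenylated RNA gave 18 libraries in 9 conditions, with 2 libraries in each.

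The embryonic stem cells (ESCs) came from Tet-On-OSKM/Oct4-GFP mice and carry a strain label of (C57BL/6 x 129S4/SvJae)F1 crossed with (CBA/CaJ X C57BL/6J)F2. The line is a single one, derived on mitomycin-treated feeder cells. The M2rtTA activator in Rosa26 drives, when doxycycline (DOX) is given, 1 polycistronic Oct4, Sox2, Klf4 and c-Myc (OSKM) transgene in Col1a1, and a GFP reports the distal Oct4 promoter. The 2iL-ESCs stayed in 2iL, which is N2B27 with the MEK inhibitor PD0325901, the GSK3β inhibitor CHIR99021 and LIF. The OSKM-ESCs were moved from 2iL to N2B27 with DOX alone, so the transgene was on and the inhibitors and LIF were gone. Both were collected on days 18, 25 and 38 after the switch. The MEF cells were fibroblasts labelled (C57BL/6 x 129S4/SvJae)F1, at passage 4 in DMEM with 10% FBS. Per the paper's methods, Tet-On-OSKM MEF cells seeded on feeder cells were reprogrammed, which gave OSKM-iPSC clones 1 and 3 (passages 7 and 6, N2B27 with DOX) and 2iL-iPSC clones 3 and 6 (passages 2 and 3). By their labels the 2iL-iPSCs were kept in N2B27 with DOX. According to the methods, however, DOX was taken away from them after the clones had been picked. Passage and medium cannot be told apart in the iPSCs. Nothing states that the 2 libraries of an ESC or MEF condition came from separate cultures. The p-values measure only the spread between these libraries, which may be technical in the ESCs and MEF cells. In the iPSCs the 2 libraries of a medium are separate clones at different passages, so there the spread is between clones.

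PRC2 methylates histone H3 at lysine 27 (H3K27), and the trimethylated form marks silent developmental genes. EZH2 or its slower paralog EZH1 carries the catalytic SET domain, and neither works without EED, which binds the trimethyl mark, and SUZ12, the scaffold. RBBP4 (or RBBP7) is a histone-binding subunit shared with other chromatin complexes. The core joins either a Polycomb-like protein (MTF2, PHF1 or PHF19; PRC2.1), which binds CpG-rich DNA, or JARID2 with AEBP2 (PRC2.2). In ESCs, PRC2 is not needed for self-renewal but is needed for orderly differentiation, and ESCs kept in 2iL are known for a diffuse distribution of the H3K27 mark.

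All promoters shown here start 250 bases before and end 50 bases after a RefSeq transcription start (GRCm38.p6), and RefSeq gave 14 of them for the 10 genes. Those of Phf19, Eed and Mtf2 are shown because these genes differed most between the media, and those of Ezh2 and Suz12 because they hold an E2F-type motif. Capitals mark that motif (TTTCCCGC, TTTCGCGC, TTTGCCGC or TTTGGCGC on either strand). Sequences run 5′ to 3′ on the gene's strand.
Phf19, chr2:34913927-34914226, minus strand: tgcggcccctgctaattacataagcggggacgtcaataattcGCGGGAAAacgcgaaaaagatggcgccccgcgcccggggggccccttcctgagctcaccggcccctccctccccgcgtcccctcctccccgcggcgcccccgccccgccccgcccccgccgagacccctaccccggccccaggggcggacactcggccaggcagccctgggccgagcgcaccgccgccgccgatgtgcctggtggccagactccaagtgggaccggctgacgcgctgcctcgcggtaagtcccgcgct
Eed, chr7:89980927-89981226, minus strand: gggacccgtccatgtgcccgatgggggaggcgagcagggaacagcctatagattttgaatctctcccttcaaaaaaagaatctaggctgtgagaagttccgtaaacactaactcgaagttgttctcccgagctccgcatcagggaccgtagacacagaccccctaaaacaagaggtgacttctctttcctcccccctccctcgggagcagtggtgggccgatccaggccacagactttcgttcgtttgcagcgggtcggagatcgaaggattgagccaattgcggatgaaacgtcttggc
Mtf2 (the first of 2 starts), chr5:108065424-108065723, plus strand: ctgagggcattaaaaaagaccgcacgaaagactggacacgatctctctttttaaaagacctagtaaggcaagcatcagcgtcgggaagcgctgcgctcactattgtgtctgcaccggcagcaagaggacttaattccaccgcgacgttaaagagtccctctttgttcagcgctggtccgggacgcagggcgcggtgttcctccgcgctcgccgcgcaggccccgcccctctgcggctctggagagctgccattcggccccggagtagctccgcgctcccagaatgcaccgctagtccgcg
Ezh2, chr6:47594981-47595280, minus strand: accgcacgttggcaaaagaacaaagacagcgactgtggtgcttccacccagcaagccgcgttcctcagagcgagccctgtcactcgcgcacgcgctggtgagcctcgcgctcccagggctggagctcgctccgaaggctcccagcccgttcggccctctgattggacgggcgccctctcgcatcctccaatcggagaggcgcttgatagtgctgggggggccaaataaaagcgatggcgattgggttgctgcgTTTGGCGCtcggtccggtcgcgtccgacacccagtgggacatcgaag
Suz12, chr11:79992856-79993155, plus strand: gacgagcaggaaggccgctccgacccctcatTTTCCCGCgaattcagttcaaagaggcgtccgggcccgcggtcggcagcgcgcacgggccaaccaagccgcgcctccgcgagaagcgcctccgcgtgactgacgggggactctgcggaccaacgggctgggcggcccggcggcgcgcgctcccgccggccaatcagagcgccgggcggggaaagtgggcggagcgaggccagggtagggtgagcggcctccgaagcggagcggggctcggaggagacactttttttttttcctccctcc
The E2F-type letters lay at position -208 in Phf19, 4 in Ezh2 and -219 in Suz12, where position 1 is the start. Of 32851 mouse promoters of the same length, 2.26% held them. An E-box (CACGTG) was present in the Rbbp4 promoter alone among the members, at -224, and in 7.15% of all promoters. The Phf19 promoter had the highest GC content of the 14, 74.3%, with 38 CpG dinucleotides, compared with 54.7% and 17 for Eed. These matches describe the letters of the windows only.

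Values are the deposited FPKM, in which a level is already set per length of transcript and per library. Depth in reads is unknown, since the tables hold no counts. The median coverage per unit of FPKM lay between 2.99 and 3.62, and 11303 to 12095 genes per library had an FPKM over 1. The 10 pluripotent cell markers were all over 1 in every ESC and iPSC library. Their summed FPKM was 1353 to 2034 in OSKM-ESCs and 3044 to 3415 in 2iL-ESCs, and 1.15 and 2.06 in MEF cells, where Nanog, Zfp42, Pou5f1 and 4 others were at 0 in both libraries. Pou5f1 (Oct4) and Sox2 are among these markers and also in the transgene, so the sum in OSKM medium may include transgene reads. The summed FPKM of 12 fibroblast markers was 0.944% to 1.74% of the MEF mean in OSKM-ESCs and 0.2% to 0.341% in 2iL-ESCs. Between OSKM-iPSC clones 1 and 3 that sum differed most, at 4.44% and 0.288%, and it was 0.237% and 0.171% in the 2iL-iPSC clones. Of the 12 markers, 6 to 8 were over 1 FPKM in OSKM-ESC libraries and 1 to 3 in 2iL-ESC libraries. Of the 10 tested over all days, 9 were called higher in OSKM-ESCs. Markers that passed the filter through the OSKM libraries alone had to be higher there to be tested. That count is therefore not comparable with the 29.5% of all genes tested. In bulk RNA, fewer cells of a type and less RNA per cell cannot be told apart.

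Over days 18 to 38, OSKM-ESCs held less mRNA of 8 of the 10 PRC2 genes than 2iL-ESCs and more of 1. Mtf2, Eed, Suz12, Ezh1, Ezh2, Aebp2, Phf1 and Rbbp4 were lower. Phf19 was higher, and Jarid2 did not pass the test. limma with day as a covariate (6 libraries against 6, Benjamini-Hochberg adjusted p under 0.05) called 24.4% of the 14016 genes tested lower and 29.5% higher. The median log2 fold change of the members was -0.39, against 0.03 over all genes tested. In 5 of the 10 the libraries of the media did not overlap, Mtf2, Eed, Suz12 and Aebp2 being lower and Phf19 higher. Over all genes tested, 12% lay wholly lower and 14.6% wholly higher. The calls of Phf1 and Rbbp4 were the least firm. Phf1 had adjusted p-values of 0.054 to 0.096 without any 1 of 9 libraries (OSKM-ESC day 18 replicate 1, both replicates of OSKM-ESC days 25 and 38 and of 2iL-ESC days 25 and 38). Those of Rbbp4 were 0.052 to 0.067 without OSKM-ESC day 18 replicate 2, OSKM-ESC day 38 replicate 1 or either 2iL-ESC day 18 replicate.

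**Figure D1:**
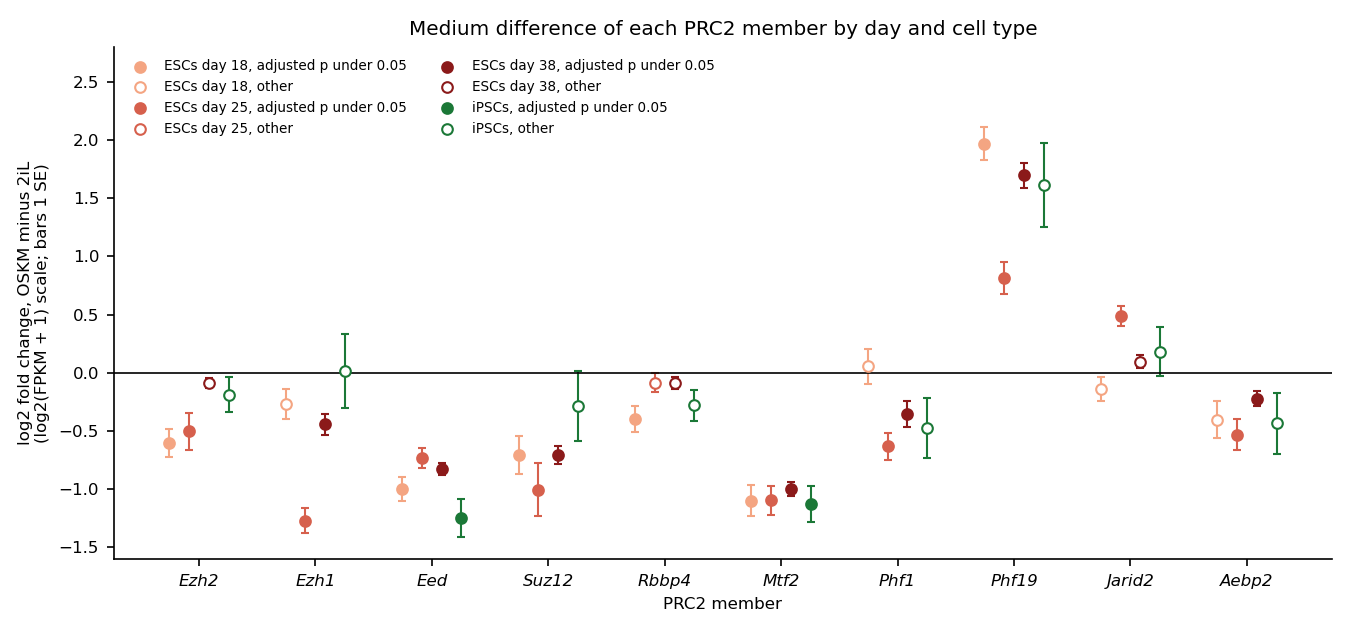
Log2 fold change of each PRC2 gene, OSKM minus 2iL, on the log2(FPKM + 1) scale, at ESC days 18, 25 and 38 and in iPSCs (2 libraries against 2). Bars are 1 standard error and filled points passed an adjusted p of 0.05 (limma). Mtf2 lies between -1.13 and -0.995 in all 4 comparisons and Phf19 is above 0 in all 4. On days 18 and 38 and in iPSCs, Phf19 passed the filter only through the OSKM libraries.

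Ezh2, the catalytic subunit of dividing cells, changed with the day in OSKM-ESCs, being highest on day 38, when its difference from 2iL-ESCs did not pass the test. In OSKM-ESCs it was at 56.3 and 55.0 FPKM on day 18, 51.5 and 70.8 on day 25, and 91.1 and 95.4 on day 38. The day 38 libraries stood above the other 4 without overlap. In 2iL-ESCs it was at 78.5 and 92.1 on day 18, 83.9 and 88.1 on day 25, and 100.9 and 97.4 on day 38. The medium difference was -0.60 ± 0.12 (log2, SE) on day 18 (limma, adjusted p = 0.0079) and -0.50 ± 0.16 on day 25 (adjusted p = 0.0494). Under the alternatives with no library left out, the day 25 adjusted p (limma) was 0.0073 to 0.148. On day 38 the medium difference was -0.09 ± 0.04 (adjusted p = 0.149) and passed only after median-ratio scaling (-0.205, adjusted p = 0.00645). The day 18 call was lost without either OSKM-ESC replicate or 2iL-ESC replicate 2 (adjusted p = 0.051 to 0.074), and the day 25 call without either 2iL-ESC replicate (0.18 and 0.23). The change of Ezh2 across days passed in OSKM-ESCs (limma F test, adjusted p = 0.0171, 38.6% of 13073 genes called) and not in 2iL-ESCs (adjusted p = 0.108). It did not pass in OSKM-ESCs without day 18 replicate 1 (adjusted p = 0.056) or either day 38 replicate (0.097 and 0.11). The difference of the medium effect between days did not pass for Ezh2 (adjusted p = 0.0972), but did without either OSKM-ESC day 25 replicate (0.021 and 0.0078) and after quantile normalization (0.0413). The summed FPKM of 15 proliferation genes moved along with Ezh2 in OSKM-ESCs, with means of 1719, 1859 and 2002 on days 18, 25 and 38, and was 2200, 1860 and 1997 in 2iL-ESCs. Its part in the Ezh2 values was not tested.

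Ezh1, the paralog found also in cells that do not divide, was low everywhere, and its medium effect depended on the day. In OSKM-ESCs it was at 5.18 and 5.39 FPKM on day 18, 4.58 and 4.86 on day 25 and 7.31 and 8.34 on day 38. In 2iL-ESCs it went from 6.08 and 7.05 to 13.4 and 12.2 and then 10.7 and 11.3. The mean on day 25 was 1.95 times that on day 18 in 2iL and 0.893 times in OSKM medium. The OSKM-ESC level was 36.8% of the 2iL-ESC level on day 25 (log2 -1.27 ± 0.11, limma, adjusted p = 0.00076), compared with 80.5% on day 18 (adjusted p = 0.14, but 0.0386 and 0.0291 after median-ratio scaling and quantile normalization) and 71.3% on day 38 (adjusted p = 0.008). Over all days the log2 difference was -0.66 ± 0.15 (adjusted p = 0.0023). The difference between days passed for Ezh1 (limma, adjusted p = 0.0011). On day 38 the call was lost without OSKM-ESC replicate 1 or either 2iL-ESC replicate (adjusted p = 0.051 to 0.070).
Ezh2 exceeded Ezh1 by a median of 11.3 times in OSKM-ESCs and 9.04 times in 2iL-ESCs on the FPKM scale, and by 2.35 and 1.90 times on the coverage scale. The ranges of the media overlapped on both scales (10.2 to 14.6 and 6.26 to 13.1 from FPKM). In MEF cells the ratio was 2.40 and 2.18 from FPKM and 0.570 and 0.512 from coverage, below every pluripotent library on both scales. Ezh2 and Ezh1 therefore changed places in MEF cells when coverage was used, since coverage per unit of FPKM was 0.542 to 0.696 for Ezh2 and 2.59 to 3.22 for Ezh1.
Over the 16 pluripotent libraries, the genes most like Ezh2 by Pearson's r of log2(FPKM + 1), of 9672 ranked, were 2700049A03Rik (0.950), Prkdc (0.945) and Ccdc14 (0.933). Those most like Ezh1 were Auh (0.938), Ogt (0.932) and Acvr1b (0.928). Within the 8 libraries of either medium alone these 6 correlations were 0.762 to 0.979. The points share media, days and clones, so they are not independent. The 6 genes were picked by their correlation over these same libraries, so the values within a medium are no separate support.

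**Figure D2:**
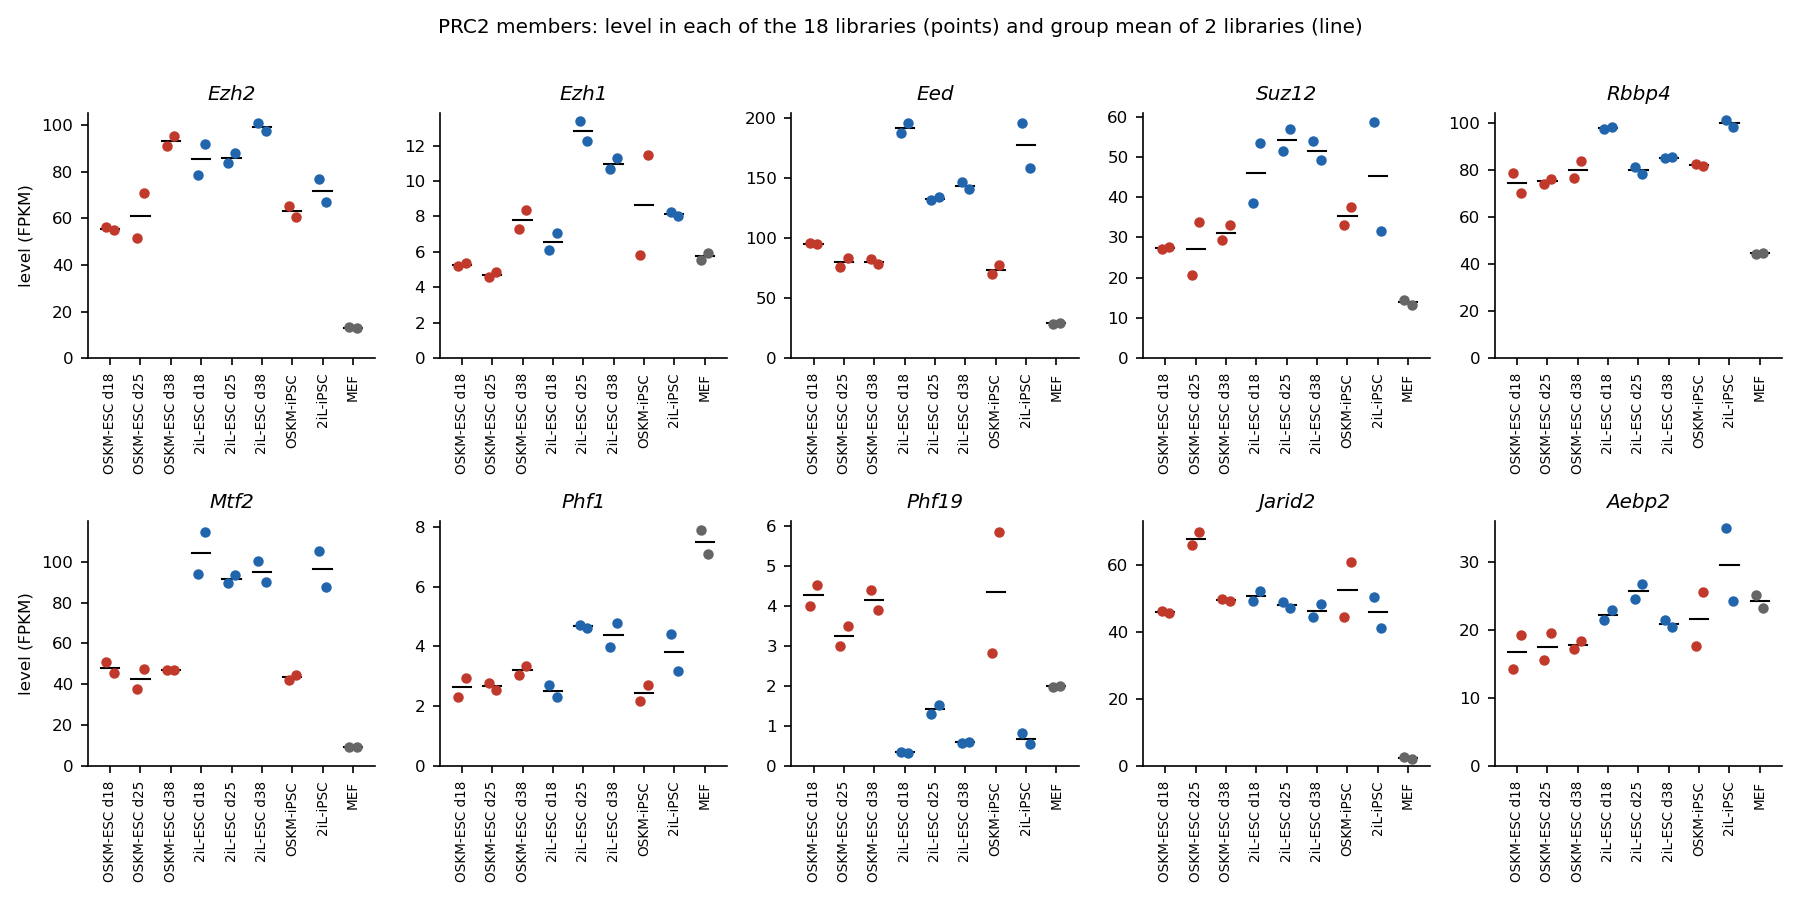
Level in FPKM (vertical axes, from 0) of the 10 PRC2 genes in each of the 18 libraries. Points are libraries (red OSKM medium, blue 2iL, grey MEF cells) and black lines the mean of the 2 libraries of a condition. Eed and Mtf2 show the OSKM libraries between 70.1 and 95.7 and between 37.7 and 50.7 FPKM, all below the 2iL libraries.

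Among the other core subunits, Eed and Suz12 were lower in OSKM-ESCs on each of the 3 days. Eed, which reads the H3K27 mark, was at 76.1 to 95.7 FPKM in OSKM-ESCs (median 83.3) and at 131 to 196 in 2iL-ESCs (median 143). The groups were separated by a gap. The OSKM-ESC level was 54.7% of that in 2iL-ESCs (log2 -0.85 ± 0.06, limma, adjusted p = 2.1e-07). Suz12, the scaffold, was at 20.7 to 33.7 FPKM (median 28.5) compared with 38.4 to 56.9 (median 52.5). Its OSKM-ESC mean was 56.6% of the 2iL-ESC mean (log2 -0.81 ± 0.12, adjusted p = 0.00013). Day by day, the log2 difference was between -0.999 and -0.73 for Eed and between -1.01 and -0.70 for Suz12. Those of Eed passed with any 1 library left out. The Suz12 call was lost on day 18 without either OSKM-ESC replicate or 2iL-ESC replicate 2 (adjusted p = 0.079 to 0.11) and on day 25 without either 2iL-ESC replicate (0.075 and 0.11).
In 2iL-ESCs Eed fell from 188 and 196 FPKM on day 18 to 131 and 134 on day 25 and was at 146 and 141 on day 38. This change passed the test across days (limma, adjusted p = 0.0012, 50.8% of 12726 genes called), while in OSKM-ESCs Eed did not (95.7 and 95.1, then 76.1 and 83.7, then 83.0 and 78.0; adjusted p = 0.117). The difference of the medium effect between days was not called (adjusted p = 0.107), except after median-ratio scaling (0.012) or without OSKM-ESC day 25 replicate 1 (0.047). Suz12 passed the test across days in neither medium (adjusted p = 0.60 and 0.38), but did in OSKM-ESCs without day 25 replicate 2 (0.031) and in 2iL-ESCs without day 18 replicate 2 (0.021).
Of the core genes, Rbbp4 had the smallest fold difference between the media over all days. It was at 70.2 to 83.8 FPKM in OSKM-ESCs (median 76.6) and at 78.4 to 98.4 in 2iL-ESCs (median 85.4), and the ranges overlapped. The mean ratio was 87.4% (log2 -0.19 ± 0.06, limma, adjusted p = 0.027). On day 18 alone the difference was -0.39 ± 0.11 (adjusted p = 0.030), against 97.8 and 98.4 FPKM in 2iL-ESCs, and it was lost without OSKM-ESC replicate 2 or either 2iL-ESC replicate (0.089 to 0.15). On days 25 and 38 it was -0.08 and -0.09 and did not pass.

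The Polycomb-like genes went in opposite directions. Mtf2, the main one in ESCs, was at 37.7 to 50.7 FPKM in OSKM-ESCs (median 47.2) and at 89.7 to 115 in 2iL-ESCs (median 93.7). No OSKM-ESC library came near any 2iL-ESC library, and the mean was 47.4% of the 2iL-ESC mean (log2 -1.06 ± 0.07, limma, adjusted p = 2.6e-07). The log2 difference was -1.10 on days 18 and 25 and -0.995 on day 38, passed with any 1 library left out, and showed no day dependence that passed the test (adjusted p = 0.85). Mtf2 is overlapped at its 3′ end by Tmed5 on the opposite strand, which was at 5.22 to 10.9 FPKM in OSKM-ESCs and 4.96 to 7.65 in 2iL-ESCs.
Phf19 was the only PRC2 gene higher in OSKM-ESCs over all days. Its libraries were at 4.01 and 4.54 FPKM on day 18, 3.01 and 3.51 on day 25 and 4.42 and 3.92 on day 38. The 2iL-ESC libraries were at 0.362 and 0.326, then 1.31 and 1.53, then 0.591 and 0.594. Every OSKM-ESC library was above every 2iL-ESC library, with a mean 4.96 times as high (log2 1.49 ± 0.16 on the log2(FPKM + 1) scale, which understates folds of low genes; limma, adjusted p = 1.25e-05). By day the means differed 12.4-fold, 2.30-fold and 7.03-fold. The medium effect differed between days (limma, adjusted p = 0.0010), and Phf19 changed with the day in 2iL-ESCs (adjusted p = 0.0064) but not past the threshold in OSKM-ESCs (adjusted p = 0.151). Without 2iL-ESC day 25 replicate 1 the day 25 call was lost (adjusted p = 0.060). On days 18 and 38 and in iPSCs, Phf19 passed the filter only through the OSKM libraries, so in those comparisons it had to differ to be tested. The fibroblast marker sum was also higher in OSKM-ESCs (0.944% to 1.74% of the MEF mean), and MEF cells held 1.97 and 2.02 FPKM of Phf19. The part of fibroblast RNA in the Phf19 values was not tested.
Phf1 was low in all pluripotent libraries, at 2.32 to 3.35 FPKM in OSKM-ESCs (median 2.87) and 2.30 to 4.78 in 2iL-ESCs (median 4.30). The groups overlapped on day 18 (2.32 and 2.96 compared with 2.698 and 2.30) and were apart on day 25 (2.78 and 2.54 compared with 4.71 and 4.62) and day 38 (3.06 and 3.35 compared with 3.98 and 4.78). The log2 difference was 0.05, -0.63 and -0.35 on the 3 days, with adjusted p-values (limma) of 0.80, 0.0086 and 0.041. Neither later call held with every library left out in turn. The day 25 call was lost without either 2iL-ESC replicate (adjusted p = 0.086 and 0.080) and the day 38 call without any 1 of the 4 libraries (0.051 to 0.20). Cuta, on the opposite strand, overlaps most of Phf1 (chr17:26933052-26937908) and was at 22.7 to 35.2 FPKM in OSKM-ESCs and 30.01 to 37.2 in 2iL-ESCs. Whether strand was used in counting is not given in the sources used here, so reads of Phf1 and Cuta may not have been told apart, and the part of Cuta was not tested.
As a share of the summed FPKM of Mtf2, Phf1 and Phf19, Phf19 made up 6.55% to 8.57% in OSKM-ESCs and 0.279% to 1.53% in 2iL-ESCs. On the coverage scale these ranges were 10.1% to 13.0% and 0.443% to 2.42%. Mtf2 made up 85.8% to 88.9% and 93.7% to 97.8% of the FPKM sum. The Polycomb-like FPKM sum relative to that of Jarid2 and Aebp2, the PRC2.2 genes, had a median of 0.810 in OSKM-ESCs (0.533 to 0.946). In 2iL-ESCs it was 1.38 (1.30 to 1.59). On the coverage scale the medians were 2.49 (1.57 to 2.85) and 4.27 (3.81 to 4.80), above 1 in both media. The libraries of the media did not overlap on either scale, but whether the OSKM-ESC ratio lay below 1 depended on the scale. These are ratios of mRNA levels from the genes above and were not tested on their own.

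**Figure D3:**
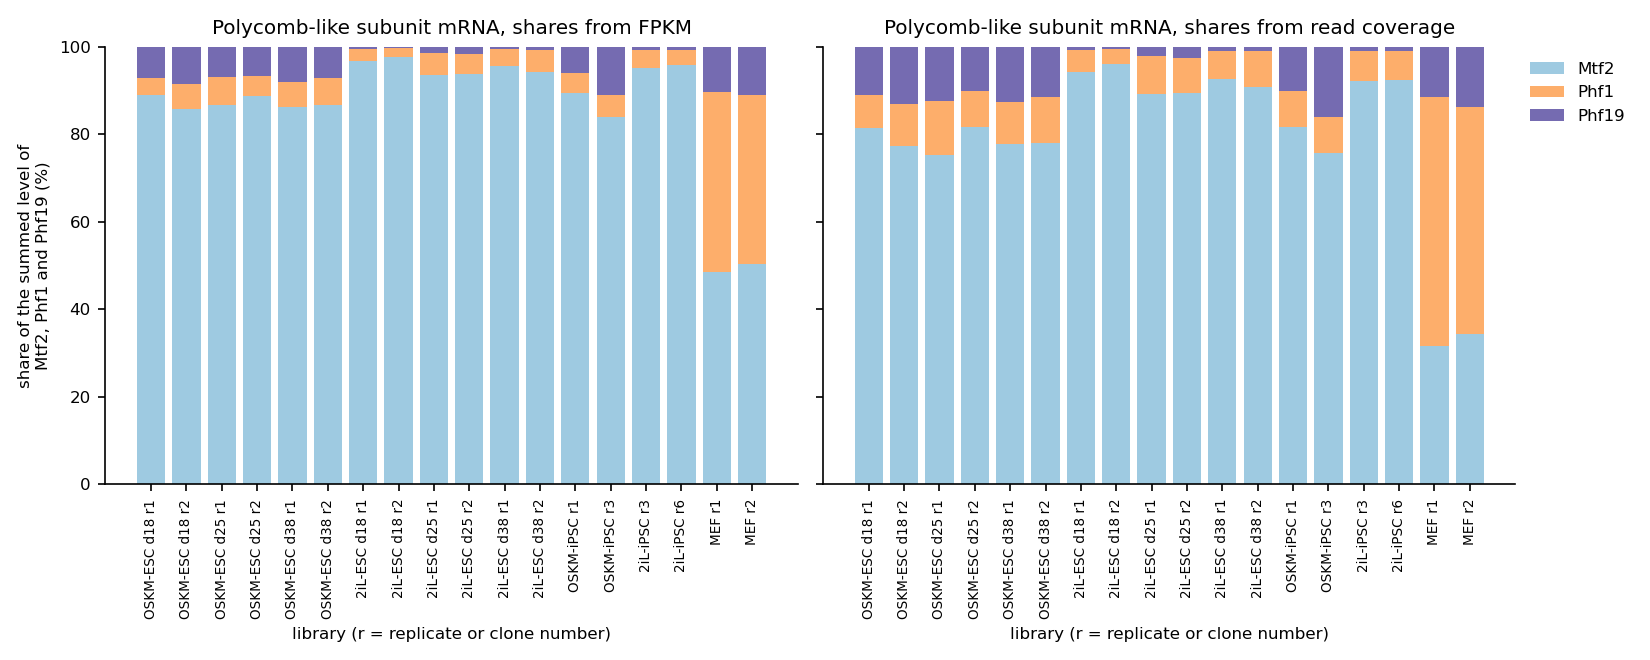
Shares (%) of Mtf2, Phf1 and Phf19 in their summed level, from FPKM (left) and from read coverage (right), in each of the 18 libraries. Phf19 (purple, top) takes up 6.55% to 8.57% of the FPKM sum in the 6 OSKM-ESC libraries and at most 1.53% in the 6 2iL-ESC libraries, and Phf1 (orange) is widest in MEF cells.

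Of the PRC2.2 genes, Jarid2 was the one member whose level over all days did not pass the test between the media. It encodes a demethylase relative without enzyme activity that helps bring PRC2 to chromatin. Jarid2 was at 46.1 and 45.7 FPKM in OSKM-ESCs on day 18, 65.9 and 69.6 on day 25 and 49.9 and 49.2 on day 38. In 2iL-ESCs all 6 libraries lay between 44.4 and 52.2. The day 25 OSKM-ESC libraries thus stood above all the others, and the other libraries of both media overlapped. The day 25 difference was 0.49 ± 0.08 on the log2 scale (limma, adjusted p = 0.0069), compared with -0.14 (adjusted p = 0.32) on day 18 and 0.10 (adjusted p = 0.20) on day 38. The change across days passed in OSKM-ESCs (adjusted p = 0.0093) and the medium effect differed between days (adjusted p = 0.0025). Without either 2iL-ESC day 25 replicate the day 25 call was lost (adjusted p = 0.087 and 0.11), and without either OSKM-ESC day 38 replicate the change across days (0.056 and 0.055).
Aebp2, a zinc finger cofactor that binds with JARID2, was at 14.2 to 19.5 FPKM in OSKM-ESCs (median 17.8) and 20.4 to 26.7 in 2iL-ESCs (median 22.2). The libraries did not overlap. The OSKM-ESC mean was 75.8% of the 2iL-ESC mean (log2 -0.38 ± 0.09, limma, adjusted p = 0.0031). On single days the difference was -0.40 (adjusted p = 0.080), -0.53 (0.024) and -0.22 (0.031). Under the alternatives with no library left out, the adjusted p (limma) was 0.0082 to 0.0761 on day 25 and 0.0044 to 0.417 on day 38. On day 18 Aebp2 was called without OSKM-ESC replicate 2 (0.033) and by both other scalings. The day 25 call was lost without either 2iL-ESC replicate (0.11 and 0.18) and the day 38 call without any 1 of the 4 libraries (0.069 to 0.14).

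By day, limma called 5 members lower and 1 higher on day 18, where 17.7% of 12774 genes were called lower and 25.7% higher. On day 25 it called 7 lower and 2 higher (25.3% and 20.7% of 13098 genes). The day 38 counts were 6 lower and 1 higher (25.2% and 34.6% of 13142 genes). Eed, Suz12 and Mtf2 were called lower and Phf19 higher on all 3 days. The 1 member higher on days 18 and 38 was Phf19. On those days it passed the filter only through the OSKM libraries, so it had to be higher to be tested. Between days, the medium effect differed for Ezh1, Jarid2, Phf1 and Phf19, 4 of 10 members, compared with 37.9% of all 14016 genes tested. That of Phf1 (adjusted p = 0.0295) was lost without any 1 of 6 libraries (OSKM-ESC day 18 replicate 2, day 25 replicate 2 and day 38 replicate 1, and 2iL-ESC day 18 replicate 2 and both day 25 replicates, 0.0504 to 0.0933). Rbbp4 (0.0555) passed without OSKM-ESC day 18 replicate 1 (0.0167). In OSKM-ESCs 3 members changed with the day (Ezh1, Ezh2 and Jarid2), compared with 38.6% of 13073 genes. In 2iL-ESCs 6 did (Ezh1, Eed, Phf1, Phf19, Aebp2 and Rbbp4), compared with 50.8% of 12726 genes. Aebp2 in 2iL-ESCs did not pass without either day 25 or either day 38 replicate (adjusted p = 0.073 to 0.20). Ezh1 in OSKM-ESCs did not pass without either day 38 replicate (0.064 and 0.13). Without 1 of the 2iL-ESC day 18 replicates, Ezh2 (0.0401 and 0.0145) and, without replicate 1, Mtf2 (0.043) passed there as well.

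**Figure D4:**
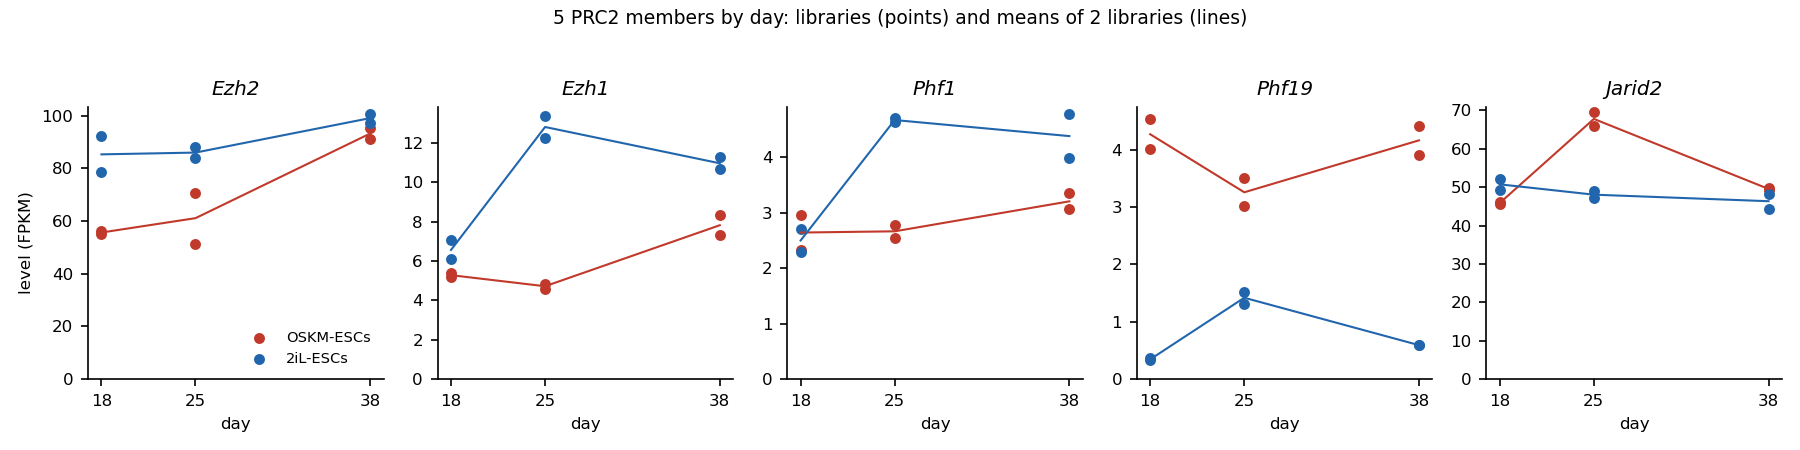
Level in FPKM (vertical axes, from 0) against the day for Ezh2, Ezh1, Phf1, Phf19 and Jarid2 in OSKM-ESCs (red) and 2iL-ESCs (blue). Points are libraries and lines join means of 2 libraries. Ezh2 in OSKM-ESCs climbs from 55.7 to 93.3 FPKM, and Jarid2 in OSKM-ESCs has its highest mean on day 25, at 67.8.

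In the iPSCs, Eed and Mtf2 were again lower in OSKM medium. Eed was at 70.1 and 77.6 FPKM in OSKM-iPSC clones 1 and 3 and at 196 and 158 in 2iL-iPSC clones 3 and 6. The clones of the media were far apart (log2 -1.25 ± 0.16, limma, adjusted p = 0.020). Mtf2 was at 42.3 and 44.7 compared with 105 and 87.4 (log2 -1.13 ± 0.16, adjusted p = 0.022). Eed and Mtf2 were the 2 members called lower, with 0 called higher, where limma called 2.96% of 13653 genes lower and 5% higher. Phf19 (limma, adjusted p = 0.054) was the only other member with an unadjusted p under 0.05. It passed the filter here only through the OSKM-iPSC clones. Phf19 was at 2.84 and 5.85 FPKM compared with 0.819 and 0.543, so that both OSKM-iPSC clones were above both 2iL-iPSC clones. The fibroblast marker sums of OSKM-iPSC clones 1 and 3 were 4.44% and 0.288% of the MEF mean, and their part in the Phf19 values was not tested. In 6 of the 10 members the clones of the media did not overlap, 5 lower and 1 higher, compared with 25.4% and 37.2% of all genes tested. Without either 2iL-iPSC clone neither Eed nor Mtf2 was called (adjusted p = 0.32 each time). Without OSKM-iPSC clone 1, Phf19 was called (0.034) and Mtf2 was not (0.051). On simulated data with the spread of this comparison, 0 of 100 genes with a log2 change of 1 and 32 of 100 with a log2 change of 2 were recovered. That run changed fewer genes than limma called in the real clones, which makes the adjustment stricter. Its recovery therefore does not give the power of the real comparison. The p-values of the 8 members not called do not show that the media gave the same level.
The clones of 1 medium differed from each other as well. Suz12 was at 58.6 and 31.7 FPKM in 2iL-iPSC clones 3 and 6, which is 1.85-fold, with the OSKM-iPSC clones in between (33.0 and 37.5). Ezh1 was at 5.80 and 11.5 in OSKM-iPSC clones 1 and 3, a 1.98-fold spread around 8.26 and 8.004 in the 2iL-iPSCs. Rbbp4 differed least, at 82.7 and 81.9 compared with 102 and 98.5. Jarid2 was at 44.3 and 60.7 compared with 50.5 and 41.2, and Aebp2 at 17.6 and 25.6 compared with 34.9 and 24.2. Ezh2 was at 65.2 and 60.8 compared with 76.9 and 67.0, and Phf1 at 2.17 and 2.72 compared with 4.405 and 3.19.
Whether the effect of the medium differed between iPSCs and ESCs was tested as a contrast of its own. Eed alone passed, with a difference further below 0 in iPSCs by -0.39 ± 0.12 on the log2 scale (limma, adjusted p = 0.042; 5.55% of 14621 genes were called in that direction and 8.67% in the other). This call was lost without any 1 of 13 of the 16 libraries (adjusted p = 0.056 to 0.16), the exceptions being OSKM-ESC day 25 replicate 1, OSKM-iPSC clone 3 and 2iL-iPSC clone 6. Mtf2 differed by -0.06 ± 0.15 and Phf19 by 0.12 ± 0.25. Without OSKM-iPSC clone 1, Ezh1 (1.11, adjusted p = 0.00031) and Phf19 (0.54, adjusted p = 0.036) were called in the other direction.

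Compared with MEF cells, most PRC2 genes were far higher in the iPSCs of either medium. Both comparisons use the same 2 MEF libraries and are not independent. Jarid2 showed the widest gap, at 2.79 and 2.02 FPKM in MEF cells, 44.3 and 60.7 in OSKM-iPSCs and 50.5 and 41.2 in 2iL-iPSCs. The means were 21.9-fold (log2 3.97 ± 0.22, limma, adjusted p = 0.0013) and 19.1-fold higher (3.79 ± 0.17, adjusted p = 5.2e-05). Mtf2 was at 9.34 and 9.25 in MEF cells, 4.68-fold lower than in OSKM-iPSCs and 10.4-fold lower than in 2iL-iPSCs. Ezh2 was at 13.4 and 13.0, 4.79-fold and 5.47-fold lower. Eed was at 28.7 and 29.6, 2.53-fold and 6.08-fold lower. Suz12 was at 14.5 and 13.3 and Rbbp4 at 44.6 and 44.9, both also called higher in iPSCs of either medium, by 2.53-fold and 3.24-fold for Suz12 and 1.84-fold and 2.24-fold for Rbbp4. The 15 proliferation genes, whose summed FPKM was 345 and 362 in MEF cells and 1765 to 2015 in iPSCs, were also higher in iPSCs, and their part was not tested.
Phf1 went the other way. It was at 7.90 and 7.08 FPKM in MEF cells, above every pluripotent library, and was 3.07-fold lower in OSKM-iPSCs (log2 -1.31 ± 0.16, limma, adjusted p = 0.0047) and 1.97-fold lower in 2iL-iPSCs (-0.83 ± 0.16, adjusted p = 0.0064). Its overlapping neighbour Cuta was also highest in MEF cells (70.1 and 70.2 FPKM, compared with 25.5 to 41.1 in iPSCs), so that Phf1 reads may not have been told apart from Cuta there. Phf19, at 1.97 and 2.02 in MEF cells, was lower in 2iL-iPSCs (-0.84 ± 0.15, adjusted p = 0.0044). In OSKM-iPSCs its difference from MEF cells was 0.78 ± 0.32 (adjusted p = 0.10). Aebp2 passed in neither comparison (25.2 and 23.3 in MEF cells). Ezh1, at 5.56 and 5.93, was called higher in 2iL-iPSCs (0.44 ± 0.10, limma, adjusted p = 0.013). In OSKM-iPSCs its difference from MEF cells was 0.45 ± 0.33 (adjusted p = 0.29), and between the iPSCs of the media it was 0.01 ± 0.32 (adjusted p = 0.98). Phf1 made up 41.1% and 38.6% of the Polycomb-like FPKM sum in MEF cells and at most 6.40% in any pluripotent library.
In all, 6 members were called higher and 1 lower in OSKM-iPSCs (34.0% and 26.4% of 14210 genes), and 7 higher and 2 lower in 2iL-iPSCs (40.6% and 37.4% of 14224 genes). Without either MEF library no member was called against OSKM-iPSCs (adjusted p = 0.062 to 0.097 for the 7). Against 2iL-iPSCs, Ezh1, Suz12, Phf1 and Phf19 were lost without either MEF library (adjusted p = 0.052 to 0.13). Without OSKM-iPSC clone 1, Ezh1 (0.017) and Phf19 (0.0097) were called higher than in MEF cells. Without clone 3, Phf19 (0.043) was called higher and Aebp2 (0.040) lower. Without 2iL-iPSC clone 6, Aebp2 (0.035) was called higher, and without clone 3 Ezh1 was not called (0.050). The median log2 difference of all genes was 0.19 and 0.09 in these comparisons and moved to -0.05 and -0.03 after median-ratio scaling. The called members kept their directions under that scaling and under quantile normalization.

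By mean FPKM over the 8 OSKM libraries (ESCs and iPSCs) the order was Eed (82.4), Rbbp4 (78.1), Ezh2 (68.3), Jarid2 (53.9), Mtf2 (45.3), Suz12 (30.3), Aebp2 (18.4), Ezh1 (6.62), Phf19 (4.01) and Phf1 (2.74). Neighbours in this order overlapped in range, except Mtf2 with Suz12 and Aebp2 with Ezh1. Over the 8 2iL libraries Mtf2 (96.9) moved up to second place behind Eed (161), and Phf19 (0.759) was last, below Phf1 (3.84) without overlap. In MEF cells Rbbp4 (44.7), Eed (29.1) and Aebp2 (24.2) led, and Jarid2 (2.40) and Phf19 (1.99) came last. Coverage gave another order (Rbbp4, Eed, Mtf2, Suz12 and Ezh2 first in the OSKM libraries), since coverage per unit of FPKM was lowest for Ezh2 and Jarid2 and highest for Phf1 (3.53 to 4.39).
Correlations between members were computed over the 8 libraries of 1 medium, which share days and clones. In 2iL, Eed followed Rbbp4 (Pearson's r = 0.917) and ran against Ezh1 (-0.907). These were the highest and the lowest value of any pair of members in either medium, so they are extremes of many pairs. In OSKM medium the same pairs gave -0.585 and -0.283.

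Genes that work with or against PRC2 were described with hand-written lists in the comparison of ESCs over all days. In that comparison limma called 29.5% of the 14016 genes tested higher and 24.4% lower. Of 4 other PRC2 partners tested, 1 was higher and 1 lower. Rbbp7, the paralog of Rbbp4, was at 214 ± 29.0 FPKM (SD, n = 6) in OSKM-ESCs and 175 ± 25.97 (n = 6) in 2iL-ESCs (log2 0.29, limma, adjusted p = 0.0012), the opposite direction to Rbbp4. Lcor was lower (2.98 ± 0.739 compared with 5.19 ± 0.176, adjusted p = 0.00022). Ezhip is not among the names in the tables and was not analysed here.
Polycomb repressive complex 1 (PRC1) ubiquitinates histone H2A, and some of its forms, not all, bind the mark made by PRC2. It had genes called in both directions. Of its 25 genes 23 were tested, 10 were higher and 6 lower, compared with 29.5% and 24.4% of all genes tested. The higher genes with the smallest adjusted p-values were Bcor (15.0 compared with 8.34 FPKM), Phc2 (22.7 compared with 9.33) and Yaf2 (8.89 compared with 3.71). Cbx7, the main chromobox reader of ESCs, was at 61.7 ± 16.9 compared with 125 ± 19.7 FPKM (SD, n = 6 each; log2 -1.03, limma, adjusted p = 2.4e-06), and Kdm2b and L3mbtl2 were also lower.
The COMPASS and trithorax genes, whose products methylate H3K4 and oppose Polycomb silencing, gave 6 lower and 1 higher of 14 (24.4% and 29.5% of all genes). Ash2l was at 74.1 ± 9.79 compared with 176 ± 21.7 FPKM (log2 -1.24, adjusted p = 2.4e-07), and Wdr5 (57.4 compared with 89.5) and Ncoa6 (8.94 compared with 13.1) were lower too. Setd1b was higher (9.13 compared with 4.09, adjusted p = 3.6e-06). The H3K27 demethylases Kdm6a and Kdm6b did not pass (11.96 compared with 10.8 and 12.3 compared with 11.002 FPKM). Of 3 PR-DUB subunits tested, Bap1 was higher (39.7 compared with 31.9) and Asxl2 lower (16.4 compared with 19.4). Of 5 H3K36 methyltransferases, Nsd2 was higher (23.3 compared with 15.1).
Of 25 developmental genes known as PRC2 targets, 15 passed the filter, and 10 of them were higher and 2 lower. Their median log2 fold change was 0.69, but genes that passed through the OSKM libraries alone had to be higher there to be tested. T (brachyury, of the primitive streak) was at 83.8 ± 88.1 FPKM in OSKM-ESCs and 3.42 ± 2.00 in 2iL-ESCs (SD, n = 6 each; adjusted p = 2.0e-05). Cdkn1c, an imprinted inhibitor of cyclin-dependent kinases, was at 26.4 ± 10.3 compared with 2.30 ± 0.776 (adjusted p = 2.9e-08), and Fgf5 was at 3.93 compared with 0.0143. Lower were Cdkn2a (4.92 compared with 8.75) and Neurog1 (0.336 compared with 1.11). These genes respond to many signals, and the part of PRC2 was not tested. Of the 15 proliferation genes 1 was higher (Mki67) and 3 lower (Mcm3, Mcm6 and Top2a), with a median of -0.09. The medians of the PRC1 and COMPASS lists were 0.07 and -0.17, against 0.03 over all genes.

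**Figure D5:**
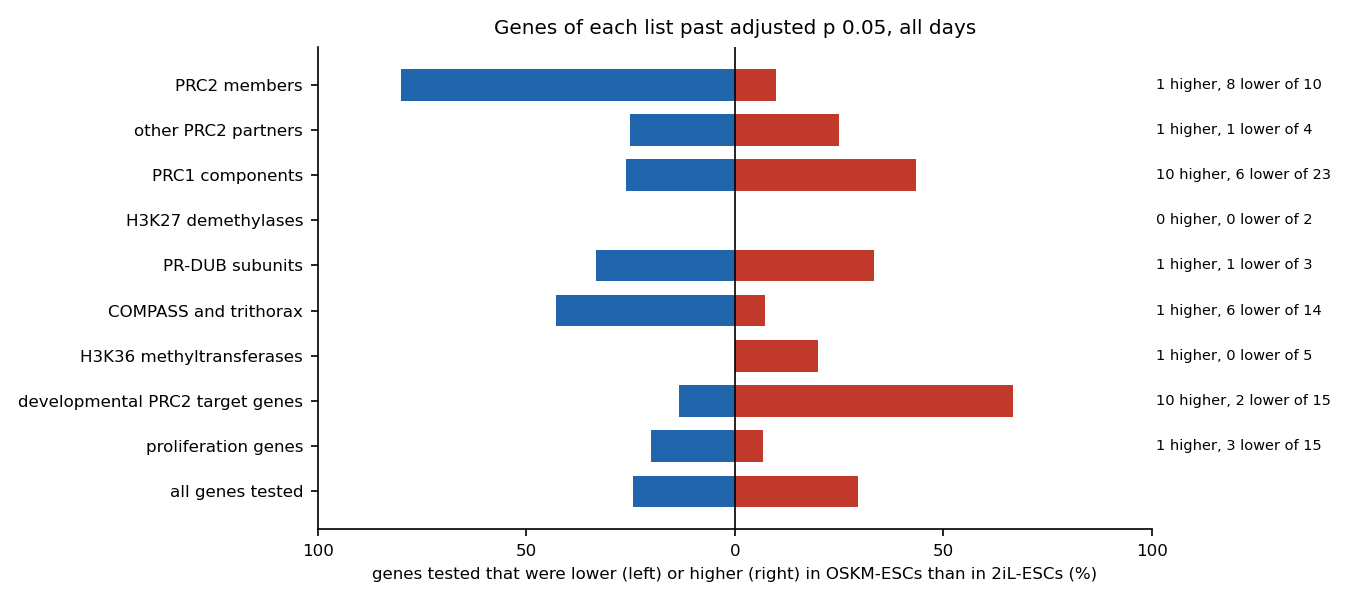
Percentage of the tested genes of each list that were lower (blue, left) or higher (red, right) in OSKM-ESCs relative to 2iL-ESCs with days 18 to 38 together (limma, adjusted p under 0.05), with the counts at the right. Of the PRC2 members 8 of 10 lie to the left, compared with 24.4% of all genes tested. The count of developmental targets to the right (10 of 15) is not comparable with that of all genes, because some of them passed the filter through the OSKM libraries alone.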

How the data were processed

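RNA was measured in 18 libraries. The authors extracted RNA with Trizol, made libraries with the NEBNext Ultra kit, aligned reads to GRCm38 with STAR 2.7.1a, kept unique alignments and ran StringTie 2.0. Cuffdiff 2.2.1 is also named in the submitters' processing notes. The deposited FPKM values are fragment levels set per length of transcript and per size of library. Coverage, also deposited by the authors, is a signal that gives the mean depth of reads over the bases of a gene without normalization. TPM was not used here. Counting by strand is not given in the sources used here. In all, 2 genes with a failed value were dropped and 11 repeated identifiers were summed.

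limma 3.58.1 in R 4.3.3 (lmFit, eBayes, with an intensity trend) took log2(FPKM + 1) as input. Genes entered where any compared library was above 1 FPKM, and p-values were adjusted by Benjamini-Hochberg over all genes tested. The fits used only the groups compared, with day as a term where days were combined, an F test across days, and contrasts for differences between days or cell types. The procedure was tested on simulated data. It recovered 99 of 100 genes with a log2 change of 1 over all days, 71 on day 38 and 0 in iPSCs, and 99, 93 and 32 of 100 with a log2 change of 2. False calls numbered 12, 0 and 0. Each run changed fewer genes than were called in the real data, so these recoveries do not give the power there. The lists of other genes were written by hand, and from each the 3 higher and 3 lower genes with the smallest adjusted p-values over all days were named. The members were taken by name, whatever their values. Members and lists were still chosen with earlier results of these data known. Alternatives were a pseudocount of 0.1, no filter, median-ratio scaling, quantile normalization, no trend, a single fit of 9 conditions, a replicate block, leaving out each library and, added after the data were seen, coverage in place of FPKM scaled to its library. Gene positions in the tables equalled those of GENCODE M21 for all 10 members. Python 3.11.15 with pandas 2.3.3 and matplotlib prepared tables and figures.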

Additional observations from a re-analysis of the deposited data

Results flagged for a closer look

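The effect of the medium on 4 of the 10 PRC2 genes differed between days in a test of the difference itself (limma F test over 12 ESC libraries). Of all 14016 genes tested, 37.9% were called in that test, a share near that of the members. The adjusted p was 0.000996 for Phf19, 0.00113 for Ezh1, 0.00252 for Jarid2 and 0.0295 for Phf1. The Phf1 call did not hold with every library left out in turn. Phf19 was higher in OSKM-ESCs by 1.97, 0.82 and 1.70 on the log2 scale on days 18, 25 and 38, in every library. The Ezh1 differences were -0.27, -1.27 and -0.44, those of Jarid2 -0.14, 0.49 and 0.10, and those of Phf1 0.05, -0.63 and -0.35. For Eed, the medium effect differed between iPSCs and ESCs (difference -0.39 on the log2 scale, limma, adjusted p = 0.0424). Of 14621 genes, 5.55% were called in that direction. The Eed call was lost without most single libraries, without the filter, without the trend and after quantile normalization. Eed was lower in OSKM medium by -1.25 in iPSCs and -0.85 in ESCs, and in every library of both.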

How the results depend on the processing

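No called member changed direction under any alternative run. Over all days, Mtf2, Eed, Suz12, Ezh1, Ezh2, Aebp2 and Phf19 were called under every alternative. On day 18 the calls of Suz12 and Rbbp4 were lost under at least 1 alternative with no library left out. The same held for Ezh2, Suz12 and Aebp2 on day 25 and for Ezh1, Phf1 and Aebp2 on day 38. Without the filter on low values, limma called 3 members lower on day 18 (5 with it), 4 on day 25 (7 with it), 0 in iPSCs (2 with it) and 0 in the difference between iPSCs and ESCs (1 with it). That last count was also 0 after quantile normalization and without the trend. With all 9 conditions in a single fit, 3 were lower on day 38 (6 otherwise), 1 higher and 4 lower in iPSCs, and 1 differed between days (4 otherwise). A pseudocount of 0.1 gave 1 higher in iPSCs, Phf19. The causes were not tested. Shares of all genes called were taken for the main setting only, so member counts under the alternatives cannot be set against all genes. With 1 library left out in turn, the counts lower were 6 to 7 over all days, 2 to 4 on day 18, 3 to 7 on day 25 and 3 to 4 on day 38, and those higher 0 to 2 on day 25. In iPSCs they were 0 to 1 higher and 0 to 2 lower, against MEF cells 0 to 8 higher and 0 to 2 lower (OSKM-iPSCs) and 5 to 8 higher and 0 to 2 lower (2iL-iPSCs). Changes across days numbered 0 to 4 in OSKM-ESCs and 5 to 8 in 2iL-ESCs, and 3 to 6 members differed between days. In the difference between iPSCs and ESCs, 0 to 2 were higher and 0 to 1 lower. A lone remaining library was assumed to vary like the other groups. Deviations of same-numbered ESC libraries correlated at 0.131, 0.0875 and 0.0104 on days 18, 25 and 38. These values cannot show whether same-numbered libraries shared a culture or a preparation, and no pairing is stated. With a replicate block, 6 members were lower over all days, 6 on day 18, 7 on day 25 and 5 on day 38, and 3 differed between days. With coverage in place of FPKM, chosen after seeing the data, 6 were lower over all days. Median-ratio scaling moved the median of all genes from 0.07 to -0.06 on day 18, from 0.07 to -0.04 on day 38 and from 0.09 to -0.04 in iPSCs. Without read counts, counting error cannot be given, and the levels of Phf19 in 2iL rest on little coverage.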
